A study of Mus musculus with 4 samples.

Results

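The Hippo pathway and its output were measured in cultured aortic smooth muscle cells through 37 genes given by name: 23 genes of the pathway's machinery (co-activators, TEAD factors, kinases, adaptors and other cofactors) and 14 genes known as targets of the co-activators YAP and TAZ. A member was the array row that carried its symbol and no other, and where a gene had several such rows the one with the highest mean was kept. Of the 37 members, 36 had such a row among the 22180 genes named this way, and Stk3, a kinase of the pathway, is not reported here. Of these 36, 35 passed the filter on dim genes (a mean log2 value of at least 3.02 over the 4 arrays) and were among the 12550 genes tested, 21 of the machinery and 14 targets. Wwc1 lay below the filter.

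Each of the 2 groups had 2 arrays of primary vascular smooth muscle cells (VSMCs) grown for 5 days from thoracic aorta without its adventitia. Knockout cells came from SM22α-Cre(+)Mmp14(fl/fl)Apoe(−/−) mice, in which Cre recombinase, expressed in smooth muscle from the promoter of SM22α (Tagln), deletes floxed Mmp14, the gene of the membrane-bound collagenase MT1-MMP. Control cells came from SM22α-Cre(−)Mmp14(fl/fl)Apoe(−/−) mice, which carried the floxed alleles and no Cre. All mice lacked Apoe, an apolipoprotein that clears plasma lipoproteins, and had eaten a Western diet for 3 months. Knockout cells were set against control cells to find transcripts that depend on MT1-MMP. Per the design text, 2 independent mouse pairs supplied these cells. Mmp14 had log2 values of 8.27 and 8.19 in the knockout arrays, against 8.71 and 9.05 in the control arrays, a difference of -0.65 (adjusted p = 0.319 in limma, which fits all tested genes together). Both knockout arrays were lower. The row can include probes outside the floxed exons, but probe positions were not examined, and the source of the remaining signal was not tested.

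In the Hippo pathway, the kinases Mst1 and Mst2 (Stk4 and Stk3) with the adaptor Sav1 activate the kinases Lats1 and Lats2 with Mob1 proteins, and Lats phosphorylates the co-activators YAP (Yap1) and TAZ (Wwtr1), which are then held in the cytoplasm or degraded. Unphosphorylated YAP and TAZ enter the nucleus, bind TEAD transcription factors and raise the transcription of genes such as Ccn1, Ccn2 and Ankrd1. Stiff matrix, cell spreading and actin tension keep YAP and TAZ active, and some targets, Lats2, Amotl2 and Ptpn14 among them, restrain the co-activators in turn. Activity is set largely by phosphorylation and location, which transcript levels do not measure.

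TEAD factors bind the element CATTCC, which reads as GGAATG when the opposite strand is followed. The 250 bases before the RefSeq start sites in GRCm38.p6 were searched on both strands, and 29 of the 37 members had such a window. Ccn2, Tead1, Tead4, Asap1, Dlc1, Fjx1 and Nuak2 were among those without a window and were not searched. These 6 windows are shown because they belong to the co-activators (Yap1, Wwtr1), to classical targets (Ankrd1, Ccn1) and to the 2 members with the smallest p-values in the comparison (Ptpn14, Nt5e). They run 5′ to 3′ on the strand of the gene, with each match to the element in capitals:
Yap1, chr9:8004597-8004846, minus strand: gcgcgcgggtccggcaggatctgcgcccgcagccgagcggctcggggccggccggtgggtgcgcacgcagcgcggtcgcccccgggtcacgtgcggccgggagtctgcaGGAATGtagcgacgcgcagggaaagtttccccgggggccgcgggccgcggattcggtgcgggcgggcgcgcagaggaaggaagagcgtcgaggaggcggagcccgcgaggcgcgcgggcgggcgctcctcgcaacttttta
Wwtr1, chr3:57575911-57576160, minus strand: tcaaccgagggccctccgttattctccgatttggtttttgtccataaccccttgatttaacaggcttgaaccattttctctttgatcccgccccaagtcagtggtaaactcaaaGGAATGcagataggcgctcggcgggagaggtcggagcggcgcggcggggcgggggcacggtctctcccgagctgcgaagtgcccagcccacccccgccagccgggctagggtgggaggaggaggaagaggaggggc
Ptpn14, chr1:189728018-189728267, plus strand: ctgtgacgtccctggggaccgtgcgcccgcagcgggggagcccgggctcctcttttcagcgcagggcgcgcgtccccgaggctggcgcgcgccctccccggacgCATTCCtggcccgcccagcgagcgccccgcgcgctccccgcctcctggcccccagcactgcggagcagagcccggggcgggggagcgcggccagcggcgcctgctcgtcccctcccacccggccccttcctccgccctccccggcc
Ankrd1, chr19:36119845-36120094, minus strand: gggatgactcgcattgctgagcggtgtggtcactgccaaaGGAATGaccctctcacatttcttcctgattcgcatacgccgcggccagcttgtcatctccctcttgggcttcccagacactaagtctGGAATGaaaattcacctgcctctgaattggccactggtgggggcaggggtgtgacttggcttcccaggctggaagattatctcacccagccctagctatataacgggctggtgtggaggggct
Ccn1, chr3:145649986-145650235, minus strand: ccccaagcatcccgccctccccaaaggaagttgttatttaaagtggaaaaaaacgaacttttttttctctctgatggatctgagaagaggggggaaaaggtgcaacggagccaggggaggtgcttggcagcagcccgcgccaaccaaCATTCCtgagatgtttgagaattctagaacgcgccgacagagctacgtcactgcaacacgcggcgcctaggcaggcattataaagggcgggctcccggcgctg
Nt5e, chr9:88327359-88327608, plus strand: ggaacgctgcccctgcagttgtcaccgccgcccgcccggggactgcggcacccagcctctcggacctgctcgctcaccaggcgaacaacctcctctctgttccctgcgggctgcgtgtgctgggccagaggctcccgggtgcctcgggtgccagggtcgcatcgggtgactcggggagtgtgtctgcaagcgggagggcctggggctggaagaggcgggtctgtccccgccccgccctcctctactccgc

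The element lay 141 bases before the Yap1 start, 146 bases before the Ptpn14 start and 103 bases before the Ccn1 start, counted from its first base. Ankrd1 held it at 210 and 123 bases. Wwtr1 has 2 listed starts, and the element stood 136 bases before the one shown. Nt5e held no match in this window. Across the family, 15 of 29 members had a match in at least 1 window (51.7%), against 14.4% of 27025 genes and 12.6% of all 32851 windows. The members with a match were 11 of 20 machinery genes and 4 of 9 targets. Wwc2 held 3 matches, at 203, 94 and 79 bases. The element TGANTCA of AP-1, a factor that often acts beside TEAD, was found in 0 of 29 members and 7.82% of genes, and the CArG box of serum response factor in 0 of 29 members and 1.62% of genes. The median GC content was 65.2% in the members' windows and 52.4% in all windows. A match is a string of letters and does not show that a factor binds there.

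In knockout arrays the co-activators, the TEADs, the scaffold group and all 14 target genes had lower mean log2 values than in control arrays. The measured core kinases and adaptors lay on both sides of 0, as did the cofactors Vgll3 and Vgll4. When some array was left out, the direction of 11 of 35 tested members turned, among them Ccn1, Ccn2, Tead2 and Amotl2. No member passed the test over all genes: limma called 0 of 35 members at an adjusted p under 0.05, and 0 of 12550 genes (0%). The smallest adjusted p among the members was 0.230, so the differences below are values and not calls. The median log2 difference, knockout minus control, was -0.41 over the targets and -0.34 over the tested machinery, against -0.05 over all tested genes. The mean was lower in the knockout for 14 of 14 targets and 17 of 21 machinery genes, against 58.3% of tested genes, and higher for 4 machinery genes, against 41.7%. Both knockout values lay below both control values for 9 targets and 12 machinery genes, against 27.5% of tested genes. For 1 member, Mob1a, both knockout arrays lay above both control arrays, against 16.7% of tested genes. A limma p under 0.05 before adjustment was reached by 8 members, all lower in the knockout, against 6.78% of tested genes in that direction. Members were chosen with earlier results of these data known, so setting them beside these shares describes the list and is not an independent test.

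Some separations between the groups were narrow. A gap of at least 0.1 log2 units between the lowest control array and the highest knockout array, a limit chosen after the values were seen, was left for 5 targets and 7 machinery genes, against 16.7% of tested genes. The gap was 0.0010 for Sav1, 0.0097 for Vgll3, 0.011 for Crim1, 0.015 for Dlc1 and 0.028 for Lats2. With 2 arrays a group, a two-sided exact permutation test cannot give a p below 0.333.

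**Figure D1:**
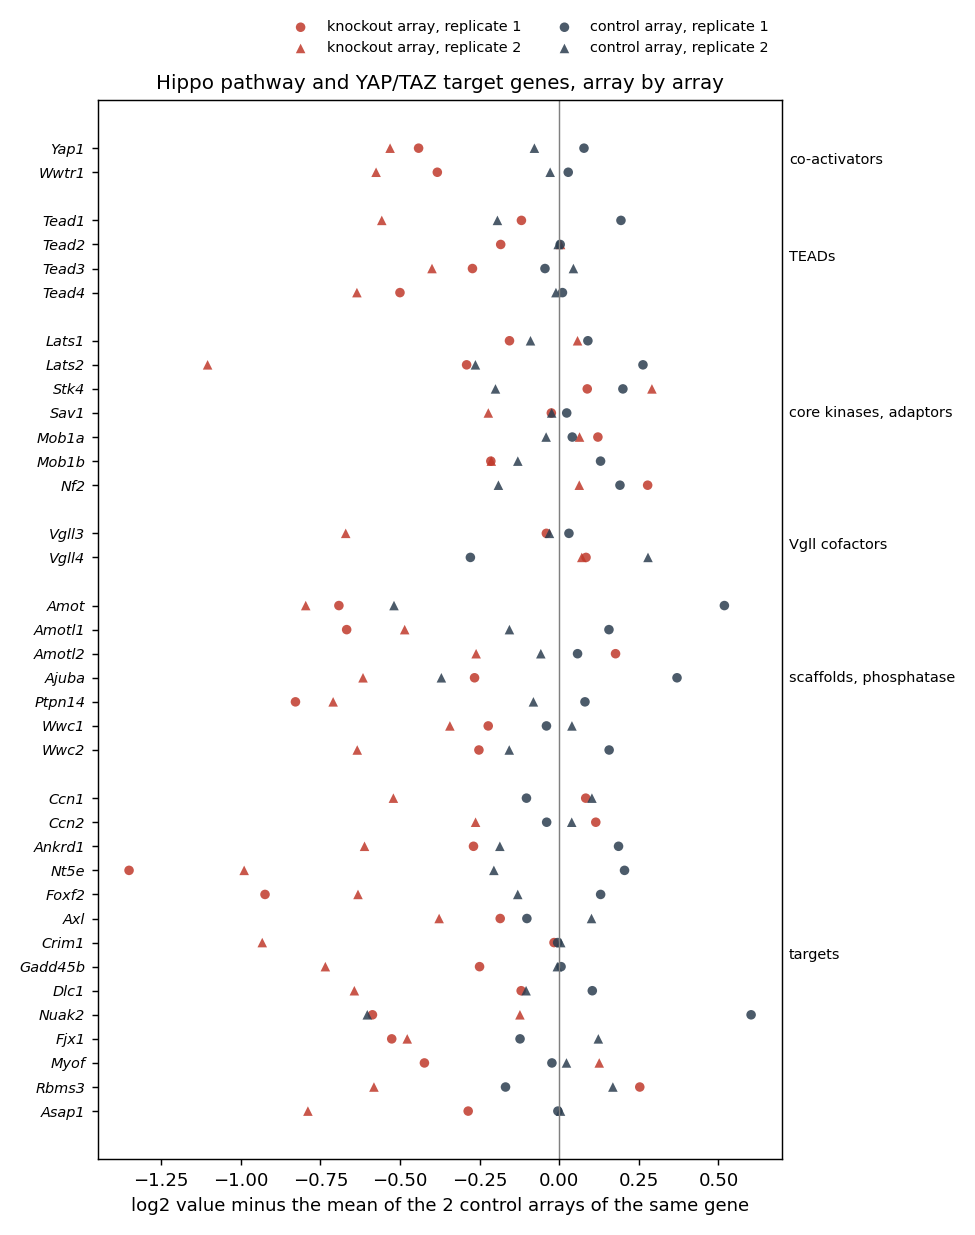
Each point is the log2 value of 1 array minus the mean of the 2 control arrays for the same gene, in knockout (red) and control (dark) arrays, with replicate 1 as circles and replicate 2 as triangles. Yap1, Wwtr1, Tead4, Ptpn14, Nt5e and Foxf2 show both knockout points clear of both control points, whereas Ccn1, Ccn2, Myof, Nuak2 and Rbms3 overlap.

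Both co-activators were lower in knockout than in control arrays and by similar amounts. Yap1 had log2 values of 6.53 and 6.44 in the knockout arrays, against 7.05 and 6.89 in the control arrays. That is a difference of -0.49 (SE 0.14, 95% interval -0.86 to -0.11, limma adjusted p = 0.351), or 0.714 times the control level. Wwtr1, which encodes TAZ, had 7.12 and 6.93 in the knockout arrays, against 7.53 and 7.47 in the control arrays. Its difference was -0.48 (SE 0.15, 95% interval -0.86 to -0.10, limma adjusted p = 0.356). The groups did not overlap for either gene, and leaving out any 1 array kept the difference between -0.56 and -0.41 for Yap1 and between -0.57 and -0.38 for Wwtr1. A second, dimmer Yap1 row with a mean of 2.75 differed by -0.04 and lay below the filter. With the rows of a gene averaged, the Yap1 difference was -0.27 (limma adjusted p = 0.506).

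The TEAD factors, which carry the DNA binding of the complex, were spread between -0.57 and -0.09. Tead4 had 3.998 and 3.86 in the knockout arrays, against 4.51 and 4.49 in the control arrays, a difference of -0.57 (SE 0.14, limma adjusted p = 0.293). Tead3 had 6.09 and 5.97 in the knockout arrays, against 6.32 and 6.41 in the control arrays, a difference of -0.34 (SE 0.14). These groups did not overlap for Tead3 or Tead4. Tead1 had 6.66 and 6.22 in the knockout arrays, against 6.97 and 6.58 in the control arrays, so its groups overlapped around a difference of -0.34 (SE 0.23), which ran from -0.56 without knockout replicate 1 to -0.12 without knockout replicate 2. Leaving out control replicate 1 gave -0.14, and leaving out control replicate 2 gave -0.53. Tead2 differed by -0.09 and also overlapped.

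Among the Vgll proteins, which bind TEADs in competition with YAP and TAZ, neither separated by more than a narrow gap. Vgll3 had 8.10 and 7.47 in the knockout arrays, against 8.17 and 8.11 in the control arrays, a difference of -0.36 (SE 0.24) that was -0.04 without knockout replicate 2. Vgll4, a repressor of TEAD-dependent transcription, differed by 0.08, and by -0.20 without control replicate 1.

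The core of kinases and adaptors showed no common direction: 3 of 7 tested genes were higher and 4 lower in the knockout, with a median difference of -0.05. Stk4, which encodes Mst1, had 6.17 and 6.37 in the knockout arrays, against 6.28 and 5.88 in the control arrays, a difference of 0.19 (SE 0.20). Lats1 had 6.84 and 7.06 in the knockout arrays, against 7.09 and 6.91 in the control arrays, a difference of -0.05 (95% interval -0.47 to 0.37). The groups overlapped for both kinases. The interval of Stk4 ran from -0.32 to 0.70, so equal levels were not shown for either.

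The remaining core members had smaller differences than Yap1, with the exception of Lats2. Sav1 differed by -0.12, the kinase cofactors Mob1a and Mob1b by 0.09 and -0.21, and Nf2 (merlin), a membrane-linked activator of Lats, by 0.17. Lats2 had 6.55 and 5.74 in the knockout arrays, against 7.11 and 6.58 in the control arrays, a difference of -0.70 (SE 0.34, limma adjusted p = 0.508). Its arrays spread widely within each group, with replicate 2 lower in both. The difference ran from -1.10 without knockout replicate 1 to -0.29 without knockout replicate 2. With a block by title number the SE was 0.18 (limma adjusted p = 0.273), though the labels do not say that a number marks a mouse pair.

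All 6 tested members of the angiomotin, LIM, phosphatase and Wwc group, proteins that tether YAP and TAZ or modulate Lats, had lower means in the knockout, with a median difference of -0.51. Ptpn14, a tyrosine phosphatase that binds YAP and holds it outside the nucleus, had 6.11 and 6.23 in the knockout arrays, against 7.02 and 6.86 in the control arrays. The difference was -0.77 (SE 0.15, 95% interval -1.15 to -0.39, limma adjusted p = 0.231), or 0.587 times the control level, and stayed between -0.85 and -0.69 when any 1 array was left out. Amotl1, an angiomotin family scaffold, had 5.92 and 6.10 in the knockout arrays, against 6.74 and 6.43 in the control arrays, a difference of -0.58 (SE 0.18). Neither gene overlapped between groups.

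Amot and Ajuba rested on control replicate 1. Amot had 4.16 and 4.06 in the knockout arrays, against 5.37 and 4.33 in the control arrays, so the difference of -0.74 (SE 0.36) was -0.23 without control replicate 1. Ajuba, a LIM protein that inhibits Lats, differed by -0.44 and overlapped, with -0.07 without control replicate 1. Amotl2 differed by -0.04 and overlapped. Wwc2, a relative of the Lats-activating protein Kibra, had 7.91 and 7.53 in the knockout arrays, against 8.32 and 8.003 in the control arrays. Its difference was -0.44 (SE 0.21). Leaving out knockout replicate 2 gave -0.25, and leaving out control replicate 1 gave -0.29. Wwc1 (Kibra itself) read 2.48 and 2.36 in the knockout arrays, against 2.66 and 2.74 in the control arrays, a difference of -0.28 at a level below the filter of 3.02.

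**Figure D2:**
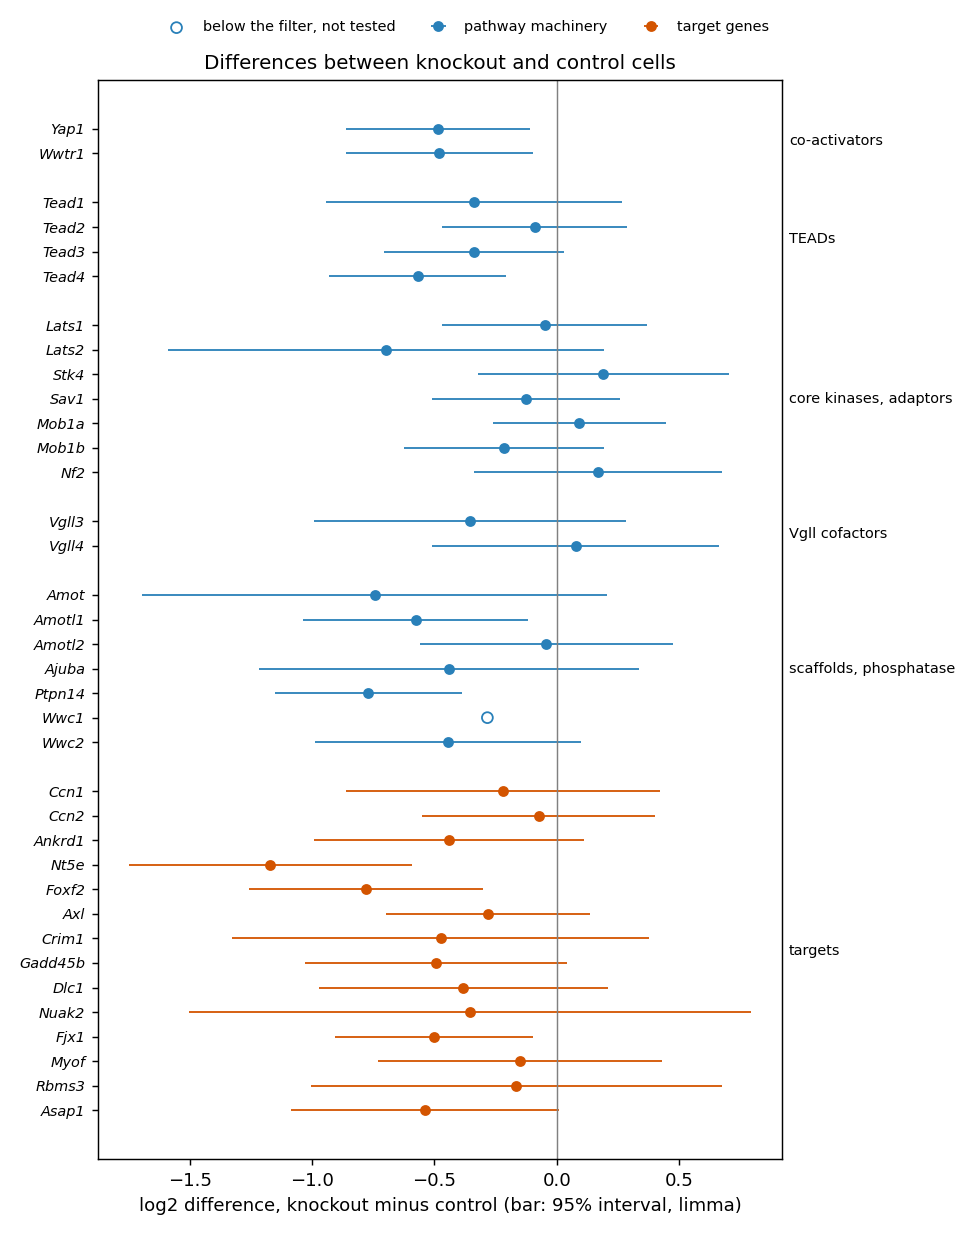
Each point is the log2 difference, knockout minus control, of 1 gene (2 arrays a group), with its 95% interval from limma, for machinery (blue) and targets (orange), and the open circle is Wwc1, which was not tested. The intervals of Yap1, Wwtr1, Tead4, Amotl1, Ptpn14, Nt5e, Foxf2 and Fjx1 exclude 0 before adjustment over all genes.

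The 2 targets most often used as readouts of YAP activity, the matricellular proteins Ccn1 (Cyr61) and Ccn2 (Ctgf), showed no separation. Ccn1 had 9.66 and 9.05 in the knockout arrays, against 9.47 and 9.68 in the control arrays. Ccn2 had 9.72 and 9.35 in the knockout arrays, against 9.57 and 9.65 in the control arrays. In both genes knockout replicate 1 stood above at least 1 control array and knockout replicate 2 was the lowest of the 4. The differences were -0.22 (95% interval -0.86 to 0.42) and -0.07 (95% interval -0.55 to 0.40), so they did not exclude a change of the size seen in Yap1. A second Ccn2 row near the filter, with a mean of 3.17, read 3.15 and 2.90 in the knockout arrays and 3.33 and 3.31 in the control arrays, a difference of -0.29, and with both rows averaged the Ccn2 difference was -0.18. Ankrd1, a muscle ankyrin repeat protein, had 9.35 and 9.004 in the knockout arrays, against 9.80 and 9.43 in the control arrays, a difference of -0.44 (SE 0.21) with a gap of 0.083 between the groups. Leaving out control replicate 1 gave -0.25, and leaving out knockout replicate 2 gave -0.27.

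The differences of Nt5e and Foxf2 were larger, with knockout means of 3.32 and 3.63, near the filter level of 3.02. Nt5e, the ecto-5′-nucleotidase CD73 that makes extracellular adenosine, had 3.14 and 3.50 in the knockout arrays, against 4.70 and 4.29 in the control arrays. The difference was -1.17 (SE 0.22, 95% interval -1.75 to -0.59, limma adjusted p = 0.230), or 0.444 times the control level, the largest in size of the 35 tested members. Foxf2, a forkhead transcription factor, had 3.49 and 3.78 in the knockout arrays, against 4.54 and 4.28 in the control arrays, a difference of -0.78 (SE 0.18, limma adjusted p = 0.280). Fjx1, a relative of a Drosophila Golgi kinase that acts on the cadherins Fat and Dachsous, had 3.95 and 3.996 in the knockout arrays, against 4.35 and 4.60 in the control arrays, a difference of -0.50 (SE 0.16). The groups did not overlap in these 3 genes, and no array decided their direction.

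Another 5 targets were lower in both knockout arrays, and knockout replicate 2 was the lowest array for each of them. Asap1, an Arf GTPase-activating protein, had 8.53 and 8.03 in the knockout arrays, against 8.81 and 8.82 in the control arrays, a difference of -0.54 (SE 0.21) that was -0.29 without knockout replicate 2. Gadd45b, a stress-induced regulator of MAP kinase signalling, had 7.54 and 7.06 in the knockout arrays, against 7.80 and 7.79 in the control arrays, a difference of -0.49 (SE 0.20) that was -0.25 without the same array. Crim1, a transmembrane protein that binds bone morphogenetic proteins, had 8.42 and 7.501 in the knockout arrays, against 8.43 and 8.44 in the control arrays. Its difference of -0.47 (SE 0.32) was -0.02 without knockout replicate 2. Dlc1 differed by -0.38, and by -0.12 without that array. Axl, a receptor tyrosine kinase for Gas6, differed by -0.28 and ranged from -0.38 to -0.18 over the refits that left out 1 array.

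In the last 3 targets the groups overlapped and the direction rested on single arrays. Nuak2, a kinase that supports actomyosin tension, had 4.25 and 4.72 in the knockout arrays, against 5.44 and 4.24 in the control arrays, and its difference of -0.36 was 0.25 without control replicate 1. Myof (myoferlin), a membrane repair protein, differed by -0.15, and by 0.13 without knockout replicate 1. Rbms3, an RNA-binding protein, differed by -0.16, and by 0.25 without knockout replicate 2.

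Kinases and cofactors set against targets gave similar medians. The target median minus the machinery median was -0.07, while the difference between the 2 classes' means varied between replicate arrays with an SD of 0.069. The contrast is of medians and the SD is of means, so the SD does not measure the spread of this contrast. As mean deviations from each gene's 4-array mean, the machinery gave -0.07 and -0.23 in the knockout arrays, against 0.26 and 0.04 in the control arrays. The targets gave -0.11 and -0.32 in the knockout arrays, against 0.26 and 0.17 in the control arrays. The contrast of medians was 0.0066 with a filter at the 75th percentile, over 10 targets and 17 machinery genes. The targets' median was -0.60 without knockout replicate 1 and -0.26 without knockout replicate 2. The machinery median was -0.49 without knockout replicate 1, -0.22 without knockout replicate 2 and -0.20 without control replicate 1. Within the machinery the roles were less alike than the 2 classes: the median was -0.41 over the 6 co-activators and TEADs, -0.51 over the scaffold and phosphatase group and -0.05 over the core. The differences between these roles were not tested, since genes are not replicates of a condition.

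**Figure D3:**
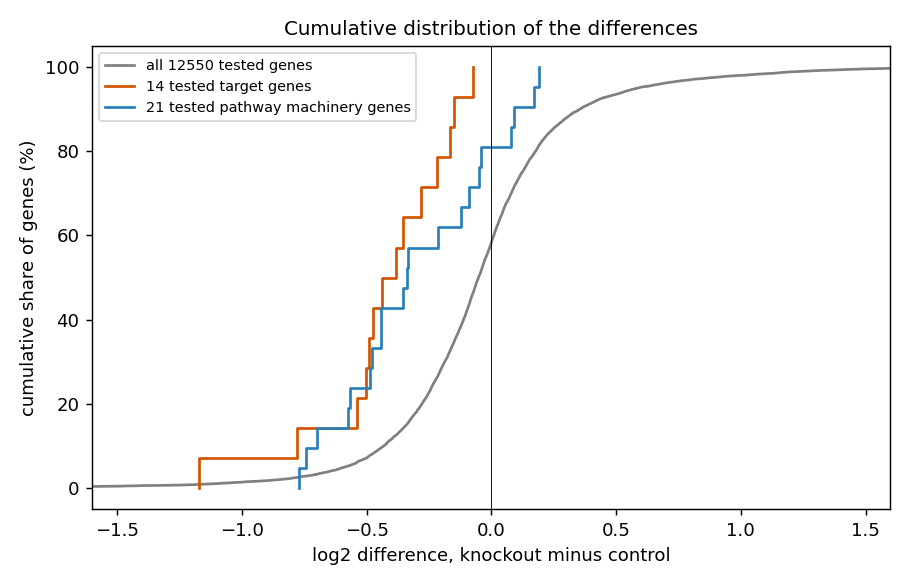
The curves give the cumulative share of genes (%) against the log2 difference, knockout minus control, for the 14 tested targets, the 21 tested machinery genes and all 12550 tested genes. Both member curves lie left of the curve of all genes, with medians of -0.41 and -0.34 against -0.05, and the machinery curve reaches right to 0.19.

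Replicate 2 gave lower values than replicate 1 for most members in both groups, but in the control arrays not for most targets. The mean deviation of the targets from each gene's mean over the 4 arrays was -0.11 and -0.32 in the knockout arrays, against 0.26 and 0.17 in the control arrays. The co-activators and TEADs gave -0.12 and -0.26 in the knockout arrays, against 0.24 and 0.15 in the control arrays. In knockout replicate 2, 24 of 35 members read below knockout replicate 1 (68.6%), against 47.0% of tested genes. These were 9 of 14 targets (64.3%) and 15 of 21 machinery genes (71.4%). In control replicate 2, 25 of 35 read below control replicate 1 (71.4%), against 52.8% of tested genes. Those were 6 of 14 targets (42.9%) and 19 of 21 machinery genes (90.5%). Of 14 genes driven by MRTF and serum response factor, an actin-responsive transcription system, 13 read lower in knockout replicate 2 than in knockout replicate 1, and 12 read lower in control replicate 2 than in control replicate 1.

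Other genes of the pathway were taken from lists. Of 25 further Hippo components, 19 were listed and 17 tested, 7 with a higher and 10 with a lower mean in the knockout, with a median of -0.06 and 0 calls by limma. An unadjusted p under 0.05 was reached by 3 of them, all lower, against the same 6.78%. Fat4, an atypical cadherin upstream of the pathway, averaged 4.11 ± 0.08 in knockout and 5.23 ± 0.02 in control arrays (SD, n = 2 each), which is -1.12 by difference (limma, adjusted p = 0.155). The polarity scaffold Dlg5 differed by -0.71 and the STRIPAK subunit Strn3 by -0.42. The kinase Csnk1e, which phosphorylates YAP on the way to its degradation, differed by -0.41. Of the 17 tested components, 5 were lower and 3 higher with no overlap of the groups, against 27.5% and 16.7% of tested genes. The 3 higher ones were Rassf5 (0.30), Taok3 (0.25) and Limd1 (0.18).

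Of 20 further genes known as YAP/TAZ targets, 18 were tested, 5 with a higher and 13 with a lower mean in the knockout, with a median of -0.29 and 0 calls by limma. An unadjusted p under 0.05 was reached by 2 of them, both lower, against 6.78% of tested genes in that direction. The 2 knockout arrays lay below both control arrays for 6 of these 18 and above them for 3. These counts were near the shares of all tested genes given above (27.5% and 16.7%). The genes above were Birc2 (0.26), Marcks (0.23) and Ndrg1 (0.21). Edn1, which encodes endothelin 1, a vasoconstrictor made mainly by endothelium, averaged 6.65 ± 0.13 in knockout and 8.31 ± 0.68 in control arrays (SD, n = 2 each), which is -1.66 by difference (limma, adjusted p = 0.254). Tgfb2, a TGF-beta ligand, differed by -0.53, the guidance ligand Slit2 by -0.46 (-0.17 without knockout replicate 2) and Arhgef17 by -0.32.

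The genes driven by MRTF and serum response factor had a median difference of -0.04, with 3 of 14 higher and 11 lower and 0 calls by limma (0 at an unadjusted p under 0.05). Srf itself differed by -0.31, the focal adhesion protein Zyx by -0.24 and the non-muscle myosin Myh9 by -0.20. Myh9 had a gap of 0.016 between the groups and differed by -0.04 without knockout replicate 2. The largest difference among the 14 was that of Cnn1, 0.39 (SE 0.57), and its groups overlapped.

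Checks of the cells and labels stood as follows. Apoe, disrupted in both groups, had 4.80 and 4.45 in the knockout arrays, against 4.97 and 4.999 in the control arrays. Its difference of -0.36 (limma adjusted p = 0.502), with a gap of 0.17 between the groups, was about as large as the machinery median of -0.34. Tagln differed by -0.01. The 8 smooth muscle markers had a median difference of -0.01, with Smtn (smoothelin) at -0.55, and their mean log2 value was 6.92 and 6.45 in the knockout arrays, against 6.75 and 6.59 in the control arrays. Array medians ran from 3.01 to 3.05, and no scan date or slide was given in the sources used here.

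Markers of other cells differed between the same groups as the members. All 12 macrophage markers had higher means in the knockout, with a median difference of 1.40 and the largest differences in Mrc1 (2.08), Ptprc (1.75), Adgre1 (1.74) and Trem2 (1.57). Their mean log2 value was 8.54 and 8.82 in the knockout arrays, against 7.37 and 7.35 in the control arrays. Of 11 tested endothelial markers 8 had lower and 3 higher means, with a median of -0.67. The largest differences were in Ptprb (-2.88), Cdh5 (-2.51), Pecam1 (-2.49) and Emcn (-2.48). The 3 higher markers were Kdr (0.32), with both knockout arrays above both control arrays, and Vwf (0.29) and Flt1 (0.10), whose groups overlapped. The endothelial markers thus did not share 1 direction. The mean log2 value of the endothelial markers, over all 12, was 3.98 and 4.05 in the knockout arrays, against 5.28 and 4.89 in the control arrays. Tek lay below the filter. Of 7 tested fibroblast markers 4 had higher and 3 lower means, with Cd34 at -2.40, Dpt at -1.51, Col3a1 at 1.18 and Col1a1 at 0.29, and Pi16 lay below the filter. Fewer cells of a type and less RNA per cell cannot be told apart in these bulk samples. The part of these marker differences in the values of the Hippo and target genes was not tested.

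**Figure D4:**
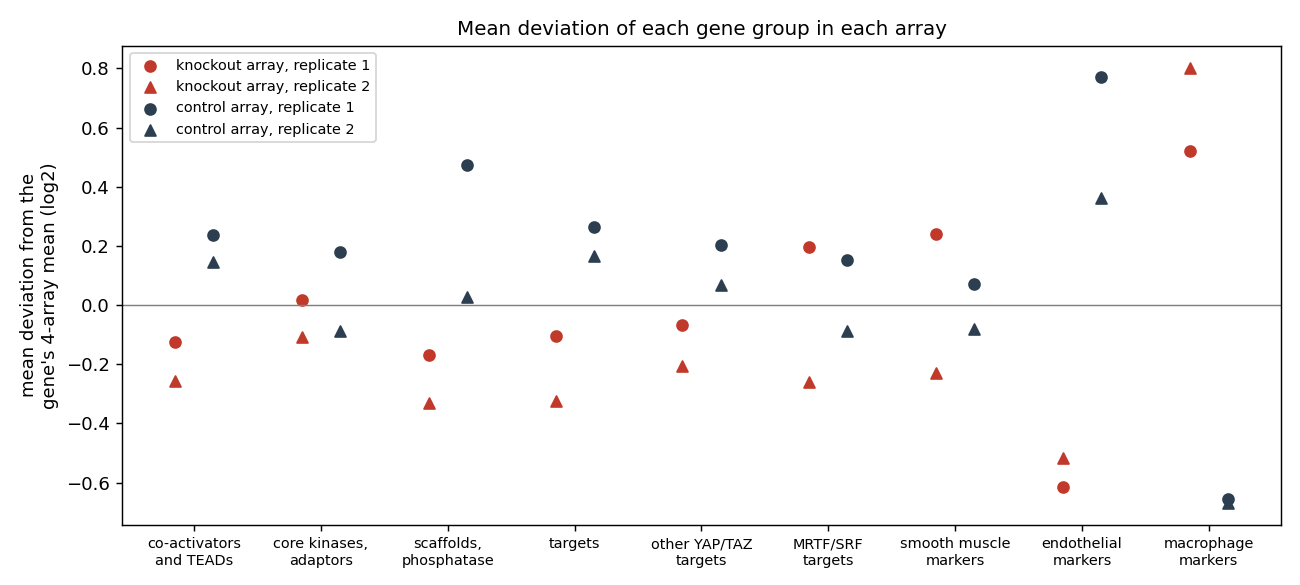
The points give, for each gene group and array, the mean deviation (log2) of the tested genes from each gene's mean over the 4 arrays, in knockout (red, left) and control (dark, right) arrays. Co-activators with TEADs, scaffolds and both target lists lie lower in the knockout arrays, core genes, MRTF/SRF targets and smooth muscle markers overlap, and endothelial markers (lower) and macrophage markers (higher) separate furthest.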

How the data were processed

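Total RNA of cultured VSMCs (10 ng) was amplified and hybridised to Mouse Gene ST 2.1 arrays, per the labels and the design text. The deposited values are log2 expression values made with RMA by the authors, per the submitters' processing notes, with the log base taken from their range of 1.17 to 12.4; the chip definition and genome build are not stated. Of 41345 rows, 23521 had 1 gene symbol in the platform annotation, 1814 had several and 16010 were not listed there.

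Genes whose 4-array mean fell under the median row mean (3.02) were left out. The other 12550 entered a linear model of knockout minus control, with no covariate (limma 3.58.1 under R 4.3.3, lmFit then eBayes), with Benjamini-Hochberg adjustment over all of them and calls at an adjusted p under 0.05. P-values set each difference against the spread between arrays of the same group, which may be partly technical. Precision is limited by the number of arrays. Alternatives were a block by title number, no filter or a stricter filter, centring each array on its median, renewed quantile normalisation, averaging a gene's rows, other variance moderation, array weights, leaving out each array, and Lats2, Amotl2 and Ptpn14 counted with the targets. The fit was tested on simulated data. Members and gene lists were chosen with earlier results of these data known. Every member is named or counted, beside Mmp14, Tagln and Apoe. Of each other list up to 4 tested genes whose groups did not overlap are named, those of largest absolute difference. Some genes with higher means are named in addition, from lists whose named genes were lower. They are Kdr, Vwf, Flt1, Cnn1, Rassf5, Taok3, Limd1, Birc2, Marcks and Ndrg1. Not every gene with a higher mean is named. The result of 1 gene list is not reported here. Promoter sequences are from RefSeq (GRCm38.p6).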

Additional observations from a re-analysis of the deposited data

How the results depend on the processing

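The count of called genes was 0 of all tested genes and 0 of the members under each alternative run. The labels do not say that a title number marks 1 of the 2 mouse pairs. Same-numbered arrays had deviations that correlated at 0.045 across all tested genes. Replicate 2 read below replicate 1 for 24 of 35 members in the knockout and 25 of 35 in the control. The latter were 19 of 21 machinery genes and 6 of 14 targets. With the replicate block 0 genes were called, and 13 members against 8 had an unadjusted p under 0.05 (limma), as did 1527 of all tested genes against 1465, while the medians of -0.41 and -0.34 are fixed by the balanced design. With a gap of at least 0.1 between groups, added after the data were seen, the members lower without overlap numbered 5 targets and 7 machinery genes in place of 9 and 12. The target median minus the machinery median was -0.07 over all arrays, 0.0066 with the 75th percentile filter, which tests 10 targets and 17 machinery genes, and -0.16 to -0.045 when each array was left out. Leaving out each array gave target medians of -0.60 to -0.26 and machinery medians of -0.49 to -0.20.

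The direction of 11 of 35 tested members turned when some array was left out, and these ranged from -0.18 to 0.0043 for Tead2, -0.16 to 0.058 for Lats1, -0.010 to 0.39 for Stk4, -0.020 to 0.36 for Nf2, -0.20 to 0.36 for Vgll4, -0.26 to 0.18 for Amotl2, -0.52 to 0.083 for Ccn1, -0.26 to 0.11 for Ccn2, -0.96 to 0.25 for Nuak2, -0.42 to 0.13 for Myof and -0.58 to 0.25 for Rbms3. Tagln ranged from -0.36 to 0.34. With a second quantile normalisation Lats1 turned to 0.0043. Of 307 member values under the other alternatives, 306 kept their direction and side of the threshold. This count was largely fixed in advance. The block, the filters, other variance moderation and array weights leave a gene's difference unchanged, so its direction could not turn there. Averaging rows altered only Yap1 and Ccn2 among the members. With 0 genes called in every setting, the side was the same throughout. The cause of these turns was not tested. Signal over background was not measured, which limits members with values near the filter, among them Nt5e, Foxf2, Tead2, Tead4 and Fjx1.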
